A study of Nothobranchius furzeri with 15 samples.

Results

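The messages of cell division genes were measured in 3 adult organs, brain, liver and skin, of Nothobranchius furzeri, a short-lived African killifish. The members were chosen by identifier, as the catalogue entries that carry the zebrafish Ensembl identifiers of pcna, mcm5, mki67, cdk1 and ccnb1. They are 5 entries out of 18311, and of 16611 that passed the filter on low counts. All 5 passed it. The entries are Nofu_gene_3_0012579 for pcna (ENSDARG00000054155), Nofu_gene_3_0010481 for mcm5 (ENSDARG00000019507), Nofu_gene_3_0010754 for mki67 (ENSDARG00000091150), Nofu_gene_3_0003337 for cdk1 (ENSDARG00000087554) and Nofu_gene_3_0003168 for ccnb1 (ENSDARG00000051923). Another gene named by the same rule, top2a, was not analysed here. Each entry is marked as a best bidirectional hit of its zebrafish gene, and none shares its identifier with another entry. All fish belonged to the inbred laboratory strain GRZ and were 12 weeks old, the labels name no treatment, and there were 5 samples of each tissue. Samples are called by the number in their title, which is 10, 11, 13, 14 or 15 for brain and for liver and 5, 6, 7, 13 or 14 for skin. No label says whether samples with the same number came from the same fish, and the sex of the fish is not given in the sources used here. RNA came from homogenised organ, so that fewer dividing cells and less RNA per cell cannot be told apart in any of the values below.

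A dividing cell first copies its DNA in S phase and then separates the copies in mitosis, and the messages of the proteins involved rise and fall with this cycle. Cells that have left the cycle hold little of most of them, which is why these messages are widely read as a mark of proliferating cells. In adult fish, epidermis renews itself throughout life and the brain keeps zones of dividing radial glia and progenitors, while most hepatocytes of an uninjured liver rest. The 5 genes cover successive steps. Pcna is the ring-shaped clamp that holds DNA polymerase on its template, and it also serves in DNA repair outside S phase. Mcm5 is a subunit of the helicase that opens replication origins. Mki67 encodes the Ki-67 protein, which coats mitotic chromosomes and is the standard marker of cycling cells in histology. Cdk1 is the kinase that drives entry into mitosis, and ccnb1 encodes cyclin B1, the regulatory subunit that cdk1 needs for it.

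Total counts per library ran from 17.7 M to 30.8 M reads. Levels are given in CPM, the count of an entry relative to the total of its library, scaled by TMM, a method that equalises libraries on the bulk of their genes, unless another scale is named. TMM factors averaged 1.68 over the brains, 1.01 over the skins and 0.598 over the livers, so the choice of scaling matters for any comparison of these tissues. Skin 7 and all livers but liver 11 held many entries raised over the other libraries of their tissue. In skin 7, 501 entries reached at least 4-fold the mean level in the remaining skins, and no other skin had more than 33 such entries. Among livers this number was 251 in liver 15, 203 in liver 14, 150 in liver 10, 111 in liver 13 and 10 in liver 11, and it was at most 31 in any brain. The marker lists for cell types could not be matched to the identifiers, so the labelled tissues were not checked against markers and the cells behind these values were not identified.

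In the fit of all 15 samples, none of the 5 cell division genes passed the threshold between any pair of tissues. That fit shares its estimate of the spread between samples over the 3 tissues. In the same fit 73.8% of all entries differed between brain and liver, 69.9% between brain and skin and 62.8% between liver and skin (edgeR quasi-likelihood test, adjusted p under 0.05). By direction and in the same order, these were 37.8% higher in brain and 36.0% higher in liver, 34.7% higher in brain and 35.3% higher in skin, and 29.3% higher in liver and 33.5% higher in skin. None of the 5 genes had an unadjusted p under 0.05 in any comparison. DESeq2 called 0 of them as well, and 74.2%, 70.6% and 64% of all entries in the same order of comparisons. The ranges of the tissues overlapped for every member in every comparison, where the ranges of brain and liver were separate for 60.7% of entries tested, those of brain and skin for 63.4% and those of liver and skin for 45.0%. Single livers decided some calls. Without liver 14, mcm5 between liver and skin and between brain and skin, and mki67 between liver and skin, passed the threshold. In that fit 62.4% of all entries were called between liver and skin and 70.3% between brain and skin. Without liver 15, pcna between brain and liver and cdk1 between brain and skin passed it, as did 76% and 73.9% of all entries in these comparisons. The log2 fold changes of mcm5 and cdk1 between brain and skin hardly moved in these fits, but their estimate of the spread is shared with the livers. When only brain and skin were fitted, mcm5 was called (log2 fold change -1.26, edgeR adjusted p = 0.0305), as were 74.6% of all entries. With skin 7 and liver 14 left out together, 0 of the 5 genes were called. The number of entries called over all stayed within 1.5 times that of the full fit. Nearest to the threshold were then the log2 fold changes between liver and skin of mcm5 (-1.20, edgeR adjusted p = 0.0599) and mki67 (-1.51, adjusted p = 0.0632). With liver 15 left out as well, a choice made after seeing the data, pcna was higher in brain than in liver (log2 fold change 1.41, edgeR adjusted p = 0.000106). It was also lower in liver than in skin (-1.04, edgeR adjusted p = 0.00201). Livers 15 and 14 were the 2 highest livers for pcna, and livers 10, 11 and 13 lay below each of the skins and brains. Leaving those 2 out thus fixed the direction of both values, and no conclusion is drawn from them. Skin 14 and skin 7 were the highest skins for 4 of the 5 genes, as for 15.7% of all entries tested. Liver 14 was among the 2 highest livers for all 5, and the share of all entries with that pattern was not computed. Liver 15 was lowest for 3 of the 5 genes, as for 31.0% of entries, and highest for pcna, as for 30.4%.

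**Figure D1:**
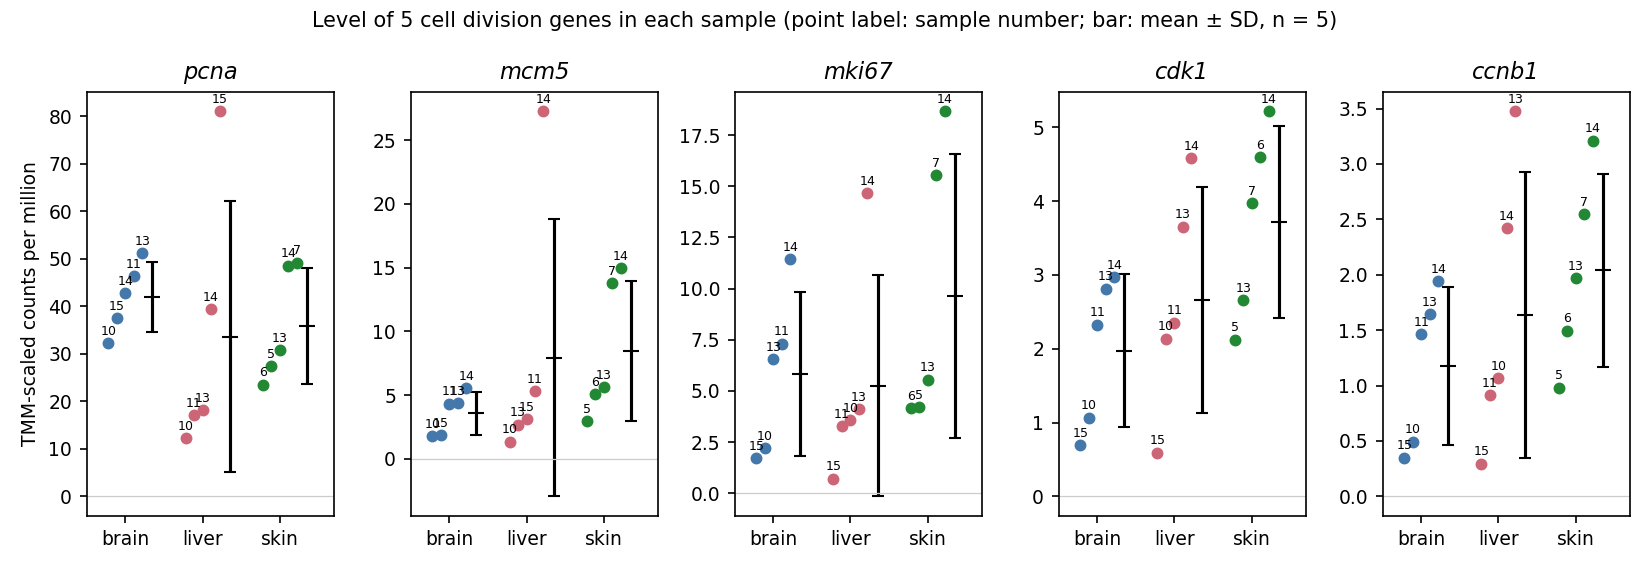
Level of each gene in each sample, in TMM-scaled CPM on a linear axis that differs between panels. Points are samples labelled by their number, and bars are the mean and SD of 5 samples. The tissues overlap in every panel, and liver spreads from 12.3 to 81.1 for pcna and from 1.35 to 27.3 for mcm5.

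The replication clamp gene pcna was the most abundant of the 5 in each library. In brain it stood at 32.3 CPM in sample 10, 37.5 in 15, 42.7 in 14, 46.3 in 11 and 51.2 in 13. Brains differed little, with the highest at 1.58 times the lowest. In skin pcna was measured at 23.5 CPM in sample 6, 27.4 in 5, 30.8 in 13, 48.6 in 14 and 49.2 in 7, and in liver at 12.3 in sample 10, 17.1 in 11, 18.1 in 13, 39.4 in 14 and 81.1 in 15. Liver 15 lay above every other library, and livers 10, 11 and 13 lay below each of the skins and brains. The place of liver 15 depended on scaling. Without TMM it stood at 58.8 CPM, above brain 10 (53.0) and below brains 15, 14, 11 and 13 (60.2 to 83.6). The mean of pcna was 42.0 ± 7.38 CPM over brains, 35.9 ± 12.1 over skins and 33.6 ± 28.5 over livers (SD, n = 5). In edgeR's fit its log2 fold change between brain and liver was 0.32, positive where brain is higher (SE 0.41, adjusted p = 0.499), between brain and skin 0.23 (SE 0.41, adjusted p = 0.641) and between liver and skin -0.09, negative where skin is higher (SE 0.41, adjusted p = 0.856). One library decided the first of these values: without liver 15, pcna was higher in brain than in liver by 0.94 on the log2 scale (edgeR adjusted p = 0.0137).

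The helicase gene mcm5 varied more between samples than pcna in each of the 3 tissues. Brain levels of mcm5 were 1.8 CPM in sample 10, 1.85 in 15, 4.33 in 11, 4.37 in 13 and 5.56 in 14. Brains 10 and 15 thus lay well under the others. Liver levels were 1.35 CPM in sample 10, 2.67 in 13, 3.14 in 15, 5.31 in 11 and 27.3 in 14. Liver 14 held 428 reads of mcm5, and its level was 8.74 times the mean of the other livers. Skin levels were 2.94 CPM in sample 5, 5.07 in 6, 5.61 in 13, 13.8 in 7 and 15.0 in 14, so that 2 skins stood above the other 3. The mean of mcm5 was 8.48 ± 5.50 CPM over skins, 7.95 ± 10.9 over livers and 3.58 ± 1.68 over brains (SD, n = 5). In edgeR's fit brain and skin stood 2.38-fold apart, with brain lower (log2 fold change -1.25, SE 0.69, adjusted p = 0.119), and brain and liver 2.23-fold apart, again with brain lower (log2 fold change -1.16, SE 0.70, adjusted p = 0.143). Neither passed the threshold. For liver over skin the log2 fold change was -0.09 (SE 0.68, adjusted p = 0.917). Both values against liver rest on liver 14. In its absence mcm5 was lower in liver than in skin by a log2 fold change of -1.45 (edgeR adjusted p = 0.0272), and the difference of brain and liver changed sign to 0.19 (adjusted p = 0.750). The log2 fold change between brain and skin stayed at -1.25 without liver 14, and its edgeR adjusted p was then 0.0286. Brain and skin also differed in mcm5 when only these tissues were fitted (log2 fold change -1.26, edgeR adjusted p = 0.0305).

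The Ki-67 gene mki67 had its highest level in sample 14 of each tissue, as mcm5 did. Its brain levels were 1.72 CPM in sample 15, 2.21 in 10, 6.54 in 13, 7.31 in 11 and 11.4 in 14, a 6.67-fold range. Its liver levels were 0.71 CPM in sample 15, 3.26 in 11, 3.56 in 10, 4.10 in 13 and 14.7 in 14. The 12 reads in liver 15 gave a 95% counting interval of 0.367 to 1.24 CPM, below the interval of each other liver. Skin levels were 4.17 CPM in sample 6, 4.19 in 5, 5.56 in 13, 15.5 in 7 and 18.7 in 14. Skins 7 and 14 were again apart from the remaining skins. The mean of mki67 was 9.62 ± 6.94 CPM over skins, 5.85 ± 4.01 over brains and 5.26 ± 5.41 over livers (SD, n = 5). EdgeR gave log2 fold changes of 0.15 between brain and liver (SE 0.68, adjusted p = 0.856), -0.73 between brain and skin (SE 0.67, adjusted p = 0.350) and -0.87 between liver and skin (SE 0.69, adjusted p = 0.283). When liver 14 was left out, mki67 was lower in liver than in skin by a log2 fold change of -1.74 (edgeR adjusted p = 0.0331).

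The genes of the mitotic kinase complex, cdk1 and ccnb1, were low in all tissues, with 10 to 130 reads per library for cdk1 and 5 to 80 for ccnb1. In brain cdk1 stood at 0.697 CPM in sample 15, 1.07 in 10, 2.33 in 11, 2.82 in 13 and 2.97 in 14. In liver it stood at 0.592 CPM in sample 15, 2.14 in 10, 2.35 in 11, 3.65 in 13 and 4.59 in 14, and in skin at 2.12 in sample 5, 2.66 in 13, 3.97 in 7, 4.59 in 6 and 5.22 in 14. Brains 15 and 10 lay below every skin, and the other 3 brains lay within the range of the skins. Means of cdk1 were 3.71 ± 1.30 CPM in skin, 2.66 ± 1.53 in liver and 1.98 ± 1.03 in brain (SD, n = 5). Of all tests on the 5 genes, cdk1 between brain and skin came nearest to the threshold, where the fitted levels stood 1.89-fold apart, lower in brain (log2 fold change -0.92 with SE 0.47 and an edgeR adjusted p of 0.0921). It passed in the fit without liver 15, at a log2 fold change of -0.92 (edgeR adjusted p = 0.0450).

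Cyclin B1, the partner of cdk1, repeated this picture at lower levels. In brain ccnb1 was measured at 0.348 CPM in sample 15, 0.494 in 10, 1.46 in 11, 1.64 in 13 and 1.95 in 14. In liver it was measured at 0.296 CPM in sample 15, 0.911 in 11, 1.07 in 10, 2.42 in 14 and 3.48 in 13, and in skin at 0.980 in sample 5, 1.5 in 6, 1.97 in 13, 2.54 in 7 and 3.21 in 14. Samples 15 and 10 were again the lowest brains, and 15 the lowest liver. With 5 reads, ccnb1 in liver 15 had a 95% counting interval of 0.0961 to 0.690 CPM, which overlapped the intervals of livers 11 and 10. The mean of ccnb1 was 2.04 ± 0.873 CPM over skins, 1.63 ± 1.29 over livers and 1.18 ± 0.714 over brains (SD, n = 5). Its log2 fold changes in edgeR's fit were -0.81 between brain and skin (SE 0.56, adjusted p = 0.210), -0.46 between brain and liver (SE 0.57, adjusted p = 0.485) and -0.35 between liver and skin (SE 0.57, adjusted p = 0.617). For cdk1 the remaining values in edgeR's fit were -0.43 between brain and liver (SE 0.48, adjusted p = 0.428) and -0.49 between liver and skin (SE 0.47, adjusted p = 0.388).

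By mean level, skin was the highest tissue for mcm5, mki67, cdk1 and ccnb1, and brain was the highest for pcna, except that liver passed skin for mcm5 in 11 of the 15 settings that left out a sample and for ccnb1 in 1 of them. No neighbours in these orders passed the threshold in the fit of all 15 samples. A missed threshold does not show equal levels, and the intervals state what the data allow. The 95% interval of the fold, without adjustment for several tests, lay within 4-fold in either direction for 11 of the 15 tests. Those that reached further were mcm5 between brain and liver (0.161 to 1.25) and between brain and skin (0.152 to 1.17), and mki67 between brain and skin (0.224 to 1.63) and between liver and skin (0.199 to 1.5). The narrowest bounds belonged to pcna, whose fold of brain over liver lay between 0.678 and 2.29. Over the 5 genes the median log2 fold change was -0.43 for brain over liver, -0.81 for brain over skin and -0.35 for liver over skin, and over all entries tested it was 0.01, 0.03 and -0.03. The 3 comparisons share their tissues, so these medians are not independent of each other.

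**Figure D2:**
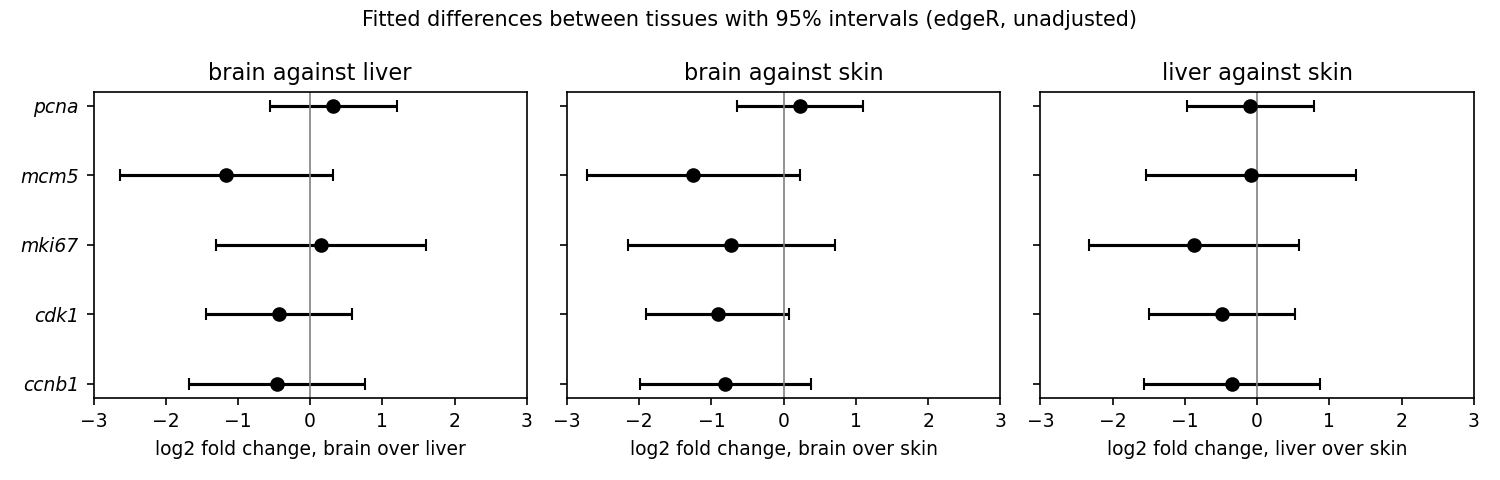
Fitted log2 fold change of each gene in the 3 comparisons, with its unadjusted 95% interval from the edgeR fit of 15 samples. Each of the 15 intervals includes 0, and the lowest adjusted p is 0.0921 for cdk1 between brain and skin.

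For mcm5, cdk1 and ccnb1 the direction between brain and liver depended on how libraries were scaled, because the TMM factors of these tissues differ so much. Without TMM, pcna and mki67 kept their direction there, and no gene changed direction between liver and skin. With total counts alone, without TMM, pcna (log2 fold change 1.69, edgeR adjusted p = 0.00436), mki67 (1.69, adjusted p = 0.0380) and cdk1 (1.11, adjusted p = 0.0406) were higher in brain than in liver, and for cdk1 this reversed the direction. In that fit 83.1% of all entries were called between brain and liver, 77.2% between brain and skin and 67% between liver and skin. For brain over liver the median over all entries tested moved to 1.49, and 84.2% of the called entries were higher in brain, against 51.2% with TMM. Here mcm5 (0.34), cdk1 and ccnb1 (1.09) lay below this median and pcna and mki67 above it. Without TMM, mki67 (log2 fold change -1.71, edgeR adjusted p = 0.0440) and cdk1 (-1.29, adjusted p = 0.0253) were also lower in liver than in skin, around a median over all entries of -0.78, with 17.2% of called entries higher in liver against 46.6% with TMM. No member was called between brain and skin without TMM, where the log2 fold changes of mki67, ccnb1 and cdk1 were -0.03, -0.08 and -0.18, around a median of 0.76 and with 70.4% of called entries higher in brain against 49.6% with TMM. Scaling by median ratios, factors taken from the genome table and the DESeq2 test, which equalise libraries on the bulk of the genes as TMM does, called 0 members in each comparison. Of all entries they called 73.8% to 74.2% between brain and liver, 70% to 70.6% between brain and skin and 63.1% to 64% between liver and skin.

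**Figure D3:**
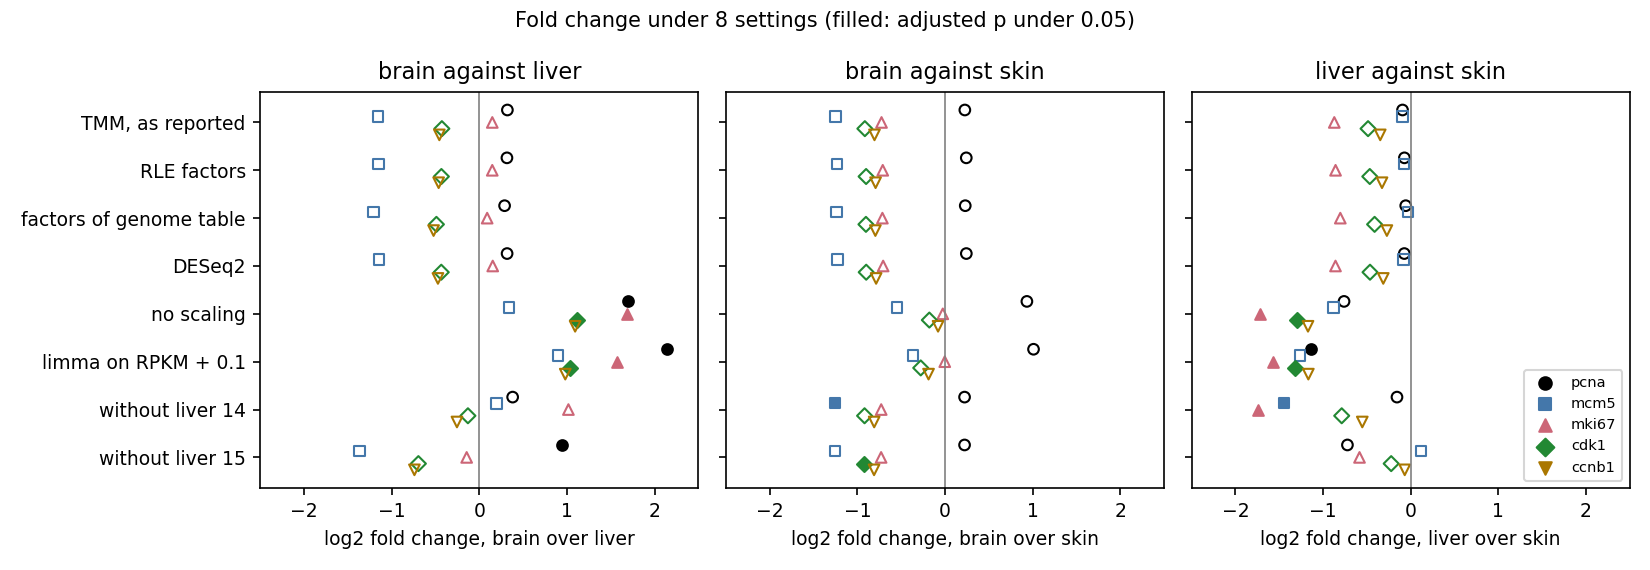
Log2 fold change of each gene under 8 settings, with filled symbols where the adjusted p is under 0.05. The fits without scaling and on log2(RPKM + 0.1) move all 5 genes toward brain in both comparisons with brain and toward skin in the third, and leaving out liver 14 or liver 15 moves single genes past the threshold.

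In the fit of 15 samples, all 5 genes varied more between samples of a tissue than most entries did. The biological coefficient of variation (BCV), the relative spread between samples of a tissue beyond counting error, was 0.733 for mcm5, 0.727 for mki67, 0.605 for ccnb1, 0.508 for cdk1 and 0.458 for pcna over the 15 samples, and its median over all entries tested was 0.260. Between 89.2% of entries (for pcna) and 97.4% (for mcm5) had a smaller BCV. These shares are over entries of all levels, and mcm5, mki67, cdk1 and ccnb1 had few reads in some libraries. A comparison with entries of like level was not made. In brain alone the BCV was 0.542 for mki67, 0.516 for ccnb1, 0.445 for cdk1 and 0.386 for mcm5, where 0.184 was the median of all entries, and 0.179 for pcna. Pcna was thus the 1 member whose spread in brain lay under that median. In liver the BCV ran from 0.571 for cdk1 to 0.875 for mcm5 around a median of 0.352, and in skin from 0.328 for pcna to 0.588 for mki67 around a median of 0.293. Counting error was small beside the spread between samples for the better covered genes: the coefficient of variation of mki67 in brain was 68.6%, where counting alone would give 7.99%. For ccnb1 in liver the values were 78.9% and 26.3%.

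The same samples were high or low for several of the genes. Brains 10 and 15 lay below the other 3 brains for all 5 genes, a pattern found in 20.4% of all entries tested. Skins 7 and 14 lay above the other 3 skins for pcna, mcm5, mki67 and ccnb1, a pattern of 15.7% of entries. Livers 13 and 14 lay above the other 3 livers for mki67, cdk1 and ccnb1, against 9.43% of entries, and liver 15 lay below the other 4 livers for the same 3 genes, against 31.0%. These patterns were picked after the values had been seen, so the shares describe them and test nothing. Liver 15 was also a liver with 251 entries raised at least 4-fold, and the part of such libraries in the levels of the members was not tested.

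**Figure D4:**
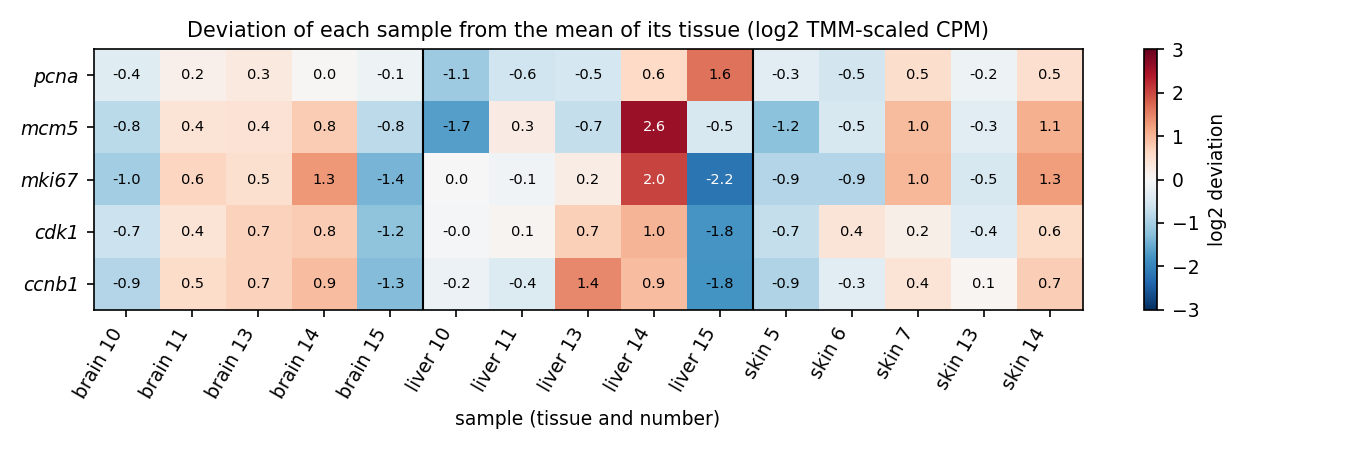
Deviation of each sample from the mean of its tissue on the log2 scale, with genes in lines and samples in columns, red above and blue below the mean. Brains 10 and 15 and liver 15 are blue for mki67, cdk1 and ccnb1, and pcna alone is red in liver 15.

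The profiles of cdk1 and ccnb1 over the 15 samples were close to each other, and mki67 came next. That of mcm5 stood farther from cdk1 and ccnb1, and that of pcna was not close to theirs. Closeness was measured as the root mean square difference of log2 CPM after centring each entry on its own mean. Of 16610 other entries, cdk1 was the nearest to ccnb1, at 0.34, and ccnb1 was the 2nd nearest to cdk1. Seen from mki67, ccnb1 ranked 12th at 0.62 and cdk1 14th at 0.64, and mcm5 ranked 43rd at 0.81. Mcm5 ranked 1308th from cdk1 at 0.85 and 966th from ccnb1 at 0.93. Ranks depend on the side they are taken from: seen from mcm5, mki67 ranked 47th, cdk1 69th, ccnb1 129th and pcna 965th. Pcna ranked 4452nd from mki67, 7834th from cdk1 and 7132nd from ccnb1, with differences of 1.33, 1.22 and 1.26. Without liver 15, a choice made after seeing the data, pcna came within 0.83 of mki67 and ranked 151st, but it still ranked 5287th from cdk1 and 4083rd from ccnb1. Mcm5 then ranked 3150th from cdk1 and 2386th from ccnb1, although its differences from them fell to 0.81 and 0.89. Some ranks of mki67 also depended on liver 15. Without that library mcm5 was nearer to mki67 (26th, 0.60) than ccnb1 (29th, 0.60) and cdk1 (35th, 0.63) were. As seen from cdk1, mki67 moved from 67th to 361st, though its difference hardly changed (0.644 with liver 15, 0.627 without). Other entries had thus come nearer to cdk1. As seen from ccnb1, mki67 moved from 14th to 18th. Cdk1 remained the nearest entry to ccnb1, at 0.35. Tissue, depth and library are shared by all entries in these profiles, and the ranks carry no test. The entries nearest to the mean profile of the 5 genes were Nofu_gene_3_0009172, paired with zebrafish gene ENSDARG00000036900, at 0.380, and Nofu_gene_3_0009283, paired with ENSDARG00000062187, at 0.385. Nofu_gene_3_0009172 averaged 1.82 ± 0.623 CPM over brains, 2.00 ± 1.06 over livers and 2.61 ± 1.39 over skins, and Nofu_gene_3_0009283 at 0.733 ± 0.546, 0.738 ± 0.587 and 1.27 ± 0.894 CPM (SD, n = 5).

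Levels of different genes were compared per length, by the deposited RPKM (reads per kilobase of entry, scaled to the library's total). The entries were 2108 bases long for pcna, 3599 for mcm5, 6170 for mki67, 1512 for cdk1 and 1683 for ccnb1. On this scale pcna was the highest of the 5 in 15 of 15 libraries, cdk1 the second in 10 and mcm5 in the other 5, and ccnb1 was the lowest in 9, mki67 in 5 and mcm5 in 1. Deposited RPKM of pcna averaged 33.4 ± 6.24 over brains, 17.5 ± 7.36 over skins and 10.3 ± 10.3 over livers (SD, n = 5). That placed pcna above an average of 87.7% of catalogue entries in brains, 82.7% in skins and 74.8% in livers. Deposited RPKM is without TMM, so its means differ between tissues partly by scaling. With TMM the RPKM of pcna averaged 19.9 ± 3.50 over brains, 17.0 ± 5.76 over skins and 15.9 ± 13.5 over livers. The other 4 genes had mean RPKM between 0.498 for mki67 in liver and 2.50 for cdk1 in skin. They lay above 20.6% (ccnb1 in brain) to 39.8% (cdk1 in liver) of entries. Of the summed RPKM of the 5 genes, pcna took 84.4% ± 6.56 over brains, 70.1% ± 5.96 over skins and 68.9% ± 15.8 over livers (SD, n = 5).

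Ratios of genes within a library do not depend on how libraries are scaled. Those of pcna to each other gene separated liver 15 from the other livers. The ratio of cdk1 to ccnb1 did not, at 2.23 in liver 15 and also in liver 10. The RPKM ratio of pcna to mki67 was 334 in liver 15, which held 12 reads of mki67. It was 15.4 in liver 11, 12.9 in liver 13, 10.1 in liver 10 and 7.88 in liver 14. In brain the ratio was 10.9 in sample 14, 18.6 in 11, 22.9 in 13, 42.7 in 10 and 63.9 in 15. Brains 10 and 15, the low brains for all 5 genes, thus had the highest pcna relative to mki67. In skin the ratio ran from 7.62 in sample 14 to 19.2 in sample 5. The ratio of pcna to mcm5 had a median of 20.0 in brain, 11.6 in liver and 7.91 in skin, with its extremes in liver, at 2.47 in liver 14 and 44.1 in liver 15. The RPKM ratio of cdk1 to ccnb1, the kinase and its partner, had mean log2 values of 0.99 ± 0.21 over brains, 1.03 ± 0.48 over livers and 1.06 ± 0.47 over skins (SD, n = 5). The kinase message was above the cyclin message per length in each of the 15 libraries, by 1.17-fold to 3.42-fold.

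**Figure D5:**
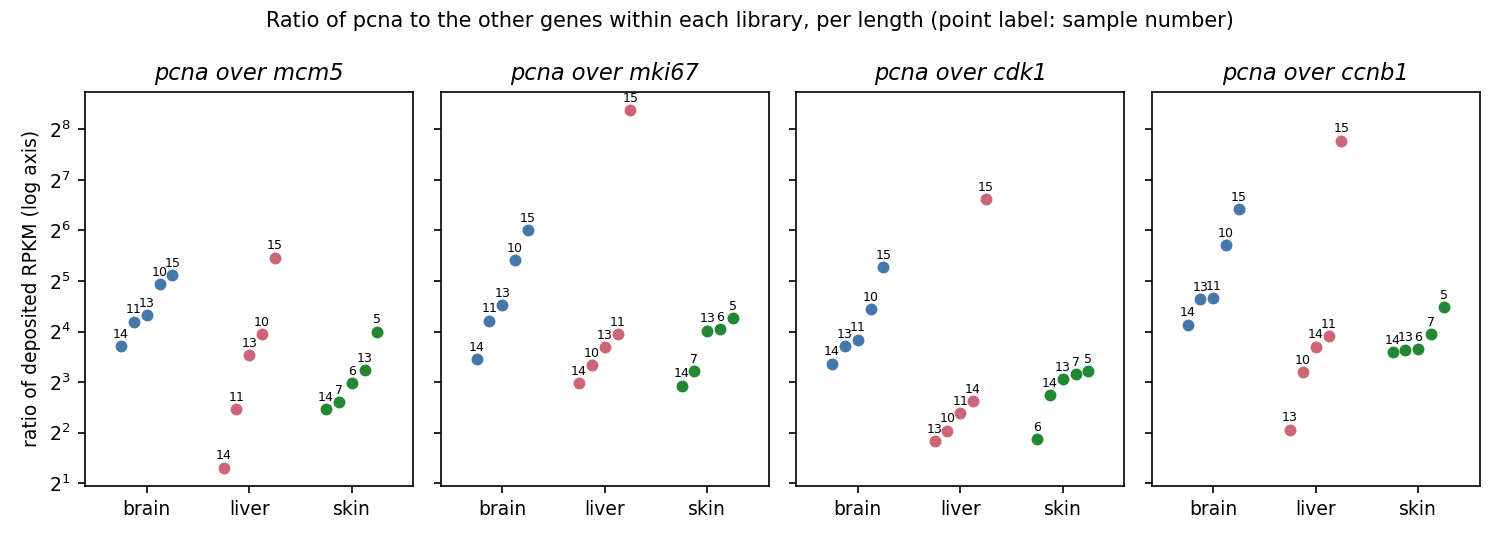
Ratio of deposited RPKM of pcna to each of the other 4 genes within each library, on a log axis with points labelled by sample number. Liver 15 is the highest point of every panel, at 334 for mki67 and 44.1 for mcm5.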

How the data were processed

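The authors deposited read counts for the entries of a transcript catalogue of the species and for gene models of the killifish genome, and RPKM values, in which per the file headers each entry is paired with a zebrafish gene. The values were treated as raw counts because they are whole numbers with different totals. Per the submitters' processing notes, featureCounts 1.4.3-p1, TopHat2 2.0.6, Bowtie and CASAVA 1.8.2 were used, in roles that are not stated. Build and annotation, strandedness and the handling of reads with several matches: not given in the sources used here, so reads shared with similar or overlapping genes are uncertain. The labels' protocols name a TruSeq RNA kit and total RNA. No label gives a batch. The RPKM sheet has 60 more sample columns, which were not used.

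Catalogue counts were tested with edgeR 4.0.16 in R 4.3.3: filterByExpr (count minimum 10), TMM, and 1 quasi-likelihood fit of 15 samples with a term per tissue. P-values were adjusted by Benjamini-Hochberg over 16611 entries, with a threshold of 0.05. SE is the log2 fold change divided by the square root of F. Counting intervals are exact Poisson intervals and cover counting error only. Log2 CPM used a prior count of 2. Entry lengths were those that counts and RPKM imply, and they gave back 100% of RPKM values within a relative tolerance of 1e-06. Alternatives used DESeq2 1.42.0 and limma 3.58.1, the latter on log2(RPKM + 0.1) and log2(RPKM + 1). Figures were drawn with matplotlib 3.10.9. The test was tried on simulated data with known changes, and the outcome is not reported here. Series information calls the 5 samples of a tissue biological replicates.

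The members and lists were chosen with earlier results of these data known. The names of the members are those given with their zebrafish identifiers. The named entries are the members and the 2 entries nearest to their mean profile. No catalogue, zebrafish or genome identifier matched the reference gene table of assembly NfurGRZ-RIMD1 (0 of each kind), so the lists of other cell division genes and of cell type markers, and a search of promoter motifs, were not analysed here, nor was the level of the members in the genome table.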

Additional observations from a re-analysis of the deposited data

Results flagged for a closer look

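Extreme samples were looked for by Dixon's test in the 15 groups of 5 samples, 1 for each gene and tissue, with a critical value of 0.71. Chance gives about 1 in 20 such groups if the values are normally distributed. The test was run on linear CPM, for which this was not checked, so that rate is not assured here. On linear CPM a sample passed the critical value in 2 groups. Liver 14 was far above the other livers for mcm5 (ratio of gap to range 0.847, 27.3 CPM against at most 5.31) and for mki67 (0.757, 14.7 CPM against at most 4.10). These 2 groups share the same library and are not independent. Liver 14 held 203 entries raised at least 4-fold over the other livers, mcm5 and mki67 among them. The part of these other entries in the level of the members was not tested.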

How the results depend on the processing

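With TMM, median-ratio (RLE) factors, genome-table factors, DESeq2, a stricter filter, summed entries or best bidirectional hits only, 0 members were called in any comparison and all 15 log2 fold changes kept their sign. These fits called 73.8% to 74.6% of all entries between brain and liver, 69.8% to 70.6% between brain and skin and 62.8% to 64.5% between liver and skin. The number of entries called over all stayed within 1.5 times under each alternative. Of 15 tests of members, those listed below moved past the threshold or changed sign. Where nothing is said, the cause was not tested. On log2(RPKM + 0.1), 84.2% of all entries were called between brain and liver, around a median log2 fold change of 1.46. Between liver and skin it was 67.8%, around -0.70. On log2(RPKM + 1) these shares were 82.4%, around 1.05, and 63.9%, around -0.45. Between brain and skin it was 78.3%, around 0.59. Without TMM, mcm5 and ccnb1 changed sign between brain and liver but were not called there.

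Brain over liver: without scaling the log2 fold changes were 1.69 for pcna, 0.34 for mcm5, 1.69 for mki67, 1.11 for cdk1 and 1.09 for ccnb1; with limma on log2(RPKM + 0.1), which has no TMM either, 2.14, 0.90, 1.57, 1.04 and 0.98; with RPKM + 1, 1.98 for pcna, 0.40 for mcm5, 0.63 for cdk1 and 0.46 for ccnb1. Without skin 7 and liver 14, mcm5 was at 0.19; without liver 15 as well, added after seeing the data, it was again at 0.19 and pcna at 1.41. Brain over skin: with RPKM + 1, pcna 0.97 and mki67 0.00508; with these tissues alone, mcm5 -1.26. Liver over skin: without scaling, mki67 -1.71 and cdk1 -1.29; with RPKM + 0.1, pcna -1.13, mki67 -1.58 and cdk1 -1.32; with RPKM + 1, pcna -1.01 and cdk1 -0.79; with no filter, pcna 0.0132; without skin 7, liver 14 and liver 15, pcna -1.04.

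Leaving out each sample in turn gave, for brain over liver, 0.10 to 0.94 for pcna, -1.43 to 0.19 for mcm5 and -0.30 to 1.02 for mki67; for brain over skin, -1.47 to -0.90 for mcm5 and -1.07 to -0.65 for cdk1; for liver over skin, -0.72 to 0.15 for pcna, -1.45 to 0.31 for mcm5 and -1.74 to -0.39 for mki67. Of the 3 pairs of tissues in the order by mean level, 2 kept their order for mcm5, cdk1 and ccnb1 without scaling and on deposited RPKM, and 2 to 3 for pcna, mcm5, mki67 and ccnb1 when a sample was left out.

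Samples with the same title number did not all deviate together: over all entries, correlations of their deviations ran from 0.0828 to 0.185 for brain and liver, and were 0.0304 and 0.261 for brain and skin and 0.0795 and 0.0834 for liver and skin. With the number as a replicate block, 0 members were called, cdk1 (0.0510) and ccnb1 (0.0324) changed sign for liver over skin, and other log2 fold changes shrank: for brain over skin, mcm5 to -0.56, mki67 to -0.11, cdk1 to -0.33 (edgeR adjusted p = 0.453) and ccnb1 to -0.36; for brain over liver, mcm5 to -0.53; for liver over skin, mcm5 to -0.02 and mki67 to -0.48. Values of pcna grew to 0.69 for brain over liver and -0.43 for liver over skin, and mki67 to 0.37 for brain over liver. With the block 12184, 9508 and 7991 entries were called over all, against 12265, 11617 and 10434. Numbers 5, 6 and 7 occurred only in skin, so comparisons with skin in this fit rested on skins 13 and 14. In those comparisons, an effect of pairing and the loss of the remaining skins cannot be told apart. All 9 correlations were positive, and 4 of the 5 brains correlated best with the liver of their own number, the exception being 13. Against skin, brain 14 and liver 13 correlated best with the skin of their own number. Brain 13 (0.0304, against 0.101 with another skin) and liver 14 (0.0834, against 0.285 with another skin) did not.

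Depth limits ccnb1 and cdk1 most, with as few as 5 and 10 reads in a library.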

Other observations

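Samples numbered 14 were high for cell division genes in each tissue. Of the 15 combinations of gene and tissue, sample 14 was the highest of its tissue in 11 and among the 2 highest in 14, and without TMM scaling these numbers were 12 and 14. The exception was pcna in brain, where sample 14 was the third of 5. These combinations come from 3 libraries and genes with related profiles, so they are not independent. No share over all entries was computed for the 11 and the 14. Liver 14 was the highest liver for 20.7% of all entries tested. For mcm5, mki67 and cdk1, sample 14 was the highest in brain, liver and skin alike, as it was for 289 of the 16611 entries tested (1.74%). Whether the 3 samples numbered 14 came from 1 fish is not given in the sources used here, and the pattern was noticed after the values had been seen.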
